A study of Rattus norvegicus with 8 samples.

Results

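The genes described here encode collagen chains, and they were chosen by name alone, as every gene on the array whose symbol was Col, a number, a and a number. There were 20 such genes of 15037 named genes, each read by 1 probe set. Another 24 collagen symbols of the rat RefSeq table, among them Col4a2, Col5a2, Col6a1 and Col6a3, are not analysed here. Collagens are made of 3 chains wound into a triple helix, with glycine at regular steps along each chain. Fibrillar collagens assemble into the tensile fibrils of connective tissue, type IV collagen forms the sheet of basement membranes around muscle fibres, and the remaining classes decorate fibrils, link layers or span membranes. In muscle, collagen around and between fibres carries load, and the cells that will fuse into myotubes are themselves able to make it.

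The cells were H9c2, a single line of rat myoblasts from embryonic heart, and all groups shared the flight hardware, a differentiation medium and the logged temperature course. Cultures started at 35000 cells per square centimetre. They were kept in a pouch pre-heated at 27 °C, entered a 37 °C incubator at day 7 and were preserved for RNA at day 10. The 8 arrays, each of 1 RNA sample, were 2 of untreated cells on ground (replicates 1 and 3), 3 of cells on ground with 100 µg/ml nanoceria (cerium oxide nanoparticles), 1 of untreated cells aboard the International Space Station and 2 of nanoceria-treated cells there. Ground cultures were a later repetition, activated by hand, that followed the logged temperatures, so regime and culture run cannot be told apart. The labels describe separate ground culture units for treated and untreated cells but do not tie arrays to units. A p-value therefore measures only the spread between these samples, which may be partly technical.

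Levels are log2 of the deposited intensity, differences are log2 units with their standard error (SE), and no level is set against that of another gene except as a place on the array's scale. Median intensities of the 8 arrays ran from 107 to 117. Ground untreated replicate 3 stood apart: 18 cell cycle genes lay at a mean of -2.27 there relative to the mean of all arrays, against -0.14 to 0.49 on the other arrays. Myoblast markers fitted the label in part, since 8 of 11 had a mean above the median of all values (6.81), including Myod1 at 6.97 to 8.19 and the muscle cadherin Cdh15 at 8.54 to 9.55, while Myf5 lay at 4.01 to 4.75. Markers of other cell types were read too: 4 of 5 smooth muscle markers had a mean above the upper quartile of all values (8.61), with Acta2 at 12.60 to 13.55, and so did 3 of 7 fibroblast markers, with Dcn at 11.02 to 12.44. Above the median lay 3 of 9 cardiomyocyte, 1 of 5 macrophage (Cd68, at 7.11 to 7.74, with Ptprc at 4.03 to 4.62) and 0 of 6 endothelial markers. The table used gave no call of detection, and low values may be background. In such bulk RNA, fewer cells of a type and less RNA per cell cannot be told apart.

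The 2 chains of type I collagen, the main fibril former of skin, bone and muscle connective tissue, stayed within a narrow band on all 8 arrays. Col1a1, the alpha 1 chain, read 14.18 and 14.10 in untreated ground replicates 1 and 3, and 14.14, 14.24 and 14.24 in treated ground replicates 1 to 3. In space it read 14.20 in untreated cells and 14.16 and 14.21 in treated cells, so the groups overlapped throughout. Col1a2, the alpha 2 chain, read 14.09 and 14.10 in untreated and 14.21, 14.24 and 14.09 in treated ground cells. Its space values were 14.17 untreated and 14.15 and 14.19 treated, between the ground values. The span from the lowest to the highest array was 0.15 for Col1a1 and 0.16 for Col1a2, and only 0.479% and 0.599% of all probe sets had a smaller one. Both chains lay among the 7 brightest probe sets of every array, and the highest value on an array was 14.17 to 14.25. The 101 probe sets with a mean between 13 and 14 had a median span of 0.38, against 0.76 for all probe sets. The 6 above them, which include both type I chains, had 0.21. Whether the scale is compressed at this brightness, which would hide changes of type I collagen, was not tested. Across the 8 arrays the 2 chains had Pearson's r = 0.24 (exact permutation p = 0.571) and Spearman's rho = 0.00 (exact permutation p = 1.00), both two-sided. Without the 2 arrays farthest from the median of Col1a1, r was 0.26, and without ground untreated replicate 3 it was -0.050. This pair was the only 1 of 5 fixed partner pairs with both chains named.

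**Figure D1:**
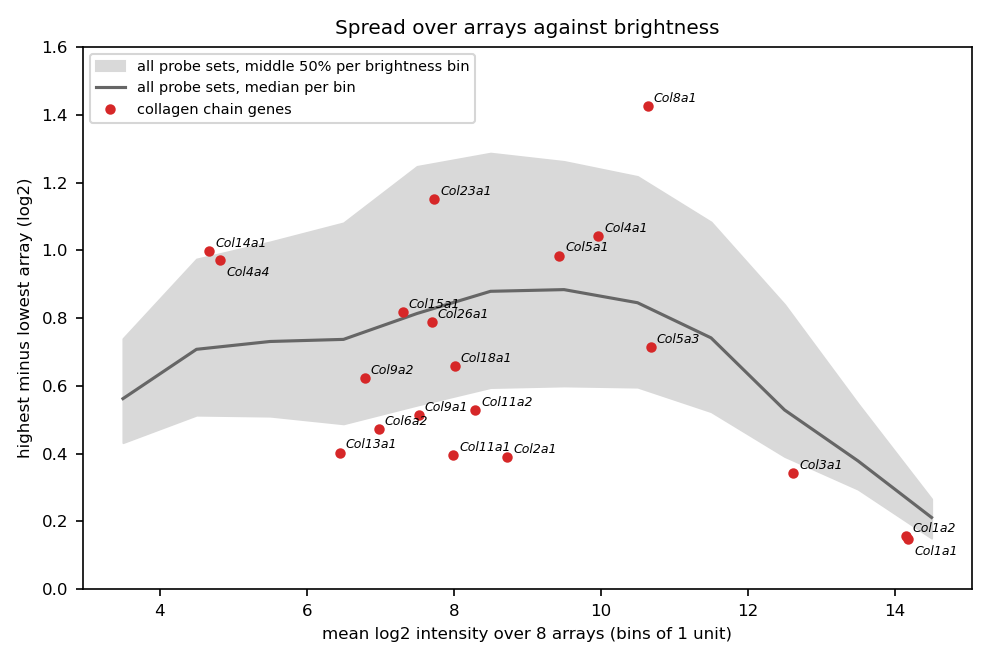
Each red point is a collagen chain gene, with its mean log2 intensity over the 8 arrays on the x axis and its highest minus lowest array (log2) on the y axis. The grey line and band give the median and quartiles of all probe sets in bins of 1 log2 unit. The last bin holds only 6 probe sets, Col1a1 and Col1a2 among them. Col1a1 and Col1a2 sit at the bright end with spans of 0.15 and 0.16, and Col8a1 has the widest span of the members, 1.43.

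Type III collagen, which forms fine fibrils with type I in extensible tissues, was also steady. Col3a1 read 12.48 and 12.65 in untreated and 12.75, 12.78 and 12.43 in treated ground cells. In space it read 12.74 in untreated and 12.45 and 12.62 in treated cells. Treated ground replicates 1 and 2 were its highest arrays and replicate 3 its lowest, so the spread within 1 group covered all the others. Col5a1 encodes a chain of type V collagen, which starts type I fibrils and limits their width. It read 9.14 and 9.03 in untreated and 9.68, 10.01 and 9.30 in treated ground cells, without overlap. In space it read 9.53 untreated and 9.05 and 9.69 treated, so the treated space arrays lay on either side of the untreated one. Of the cartilage-type fibrillar chains, Col2a1, the chain of type II collagen, read 8.55 and 8.51 in untreated and 8.73, 8.90 and 8.84 in treated ground cells. Its space values were 8.85 untreated and 8.65 and 8.75 treated, all above both untreated ground arrays. The other fibrillar members were Col5a3, another type V chain, at 10.22 to 10.93, Col11a1 at 7.75 to 8.14 and Col11a2 at 8.14 to 8.67, the last 2 being chains of the type XI collagen that nucleates cartilage fibrils.

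The basement membrane and multiplexin chains spanned from 0.66 (Col18a1) to 1.04 (Col4a1) between arrays, against 0.98 for the fibrillar Col5a1. Col4a1, a chain of the ubiquitous type IV network, read 9.34 and 10.04 in untreated and 10.11, 10.38 and 9.77 in treated ground cells. In space it read 10.07 untreated and 9.90 and 10.12 treated, so untreated ground replicate 1 alone was low. Col4a4, a type IV chain best known from the kidney filter, read 5.23 and 4.77 in untreated and 4.77, 5.03 and 4.89 in treated ground cells. It read 4.83 in untreated and 4.77 and 4.26 in treated space cells, with treated space replicate 2 the lowest. On all arrays but ground untreated replicate 1 this probe set lay below the lower quartile of all values (5.18). Col18a1 encodes the heparan sulphate-bearing collagen whose end fragment is endostatin. It read 7.66 and 7.71 in untreated and 8.32, 8.12 and 8.27 in treated ground cells, without overlap. In space it read 7.93 untreated and 8.00 and 8.08 treated, between the 2 ground groups on all 3 arrays. Col15a1, its closest relative and a component of muscle basement membranes, read 7.29 and 7.16 in untreated and 7.26, 7.33 and 7.11 in treated ground cells. It read 6.95 in untreated space cells, the lowest array, and 7.77 and 7.56 in treated space cells, the 2 highest.

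Fibril-associated, network and membrane-spanning chains made up the rest. Col9a2, a chain of the type IX collagen that sits on type II fibrils, read 6.49 and 6.64 in untreated and 6.58, 7.05 and 7.11 in treated ground cells. Its space values were 6.93 untreated and 6.76 and 6.73 treated. Col8a1, of the short-chain network collagen of vessel walls and cornea, read 10.82 and 10.55 in untreated and 9.66, 10.79 and 10.66 in treated ground cells. In space it read 10.78 untreated and 11.08 and 10.75 treated, and treated ground replicate 1 stood apart as its lowest array. Col6a2, of the beaded filaments around muscle fibres, read 6.84 and 6.82 in untreated and 6.96, 6.95 and 7.30 in treated ground cells. It read 6.92 in untreated and 7.06 and 6.96 in treated space cells, so all treated arrays of both regimes were above all untreated ones. Col9a1 lay at 7.34 to 7.85, the fibril-associated chain gene Col14a1 at 4.15 to 5.15, and the membrane-spanning chain genes Col13a1 and Col23a1 at 6.23 to 6.63 and 7.01 to 8.16. Col26a1, which encodes a secreted protein with collagen stretches, lay at 7.52 to 8.31. Over the 20 genes, 3 spanned more than 2-fold between arrays and 0 more than 4-fold. The median span was 0.64, against 0.76 for all probe sets.

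**Figure D2:**
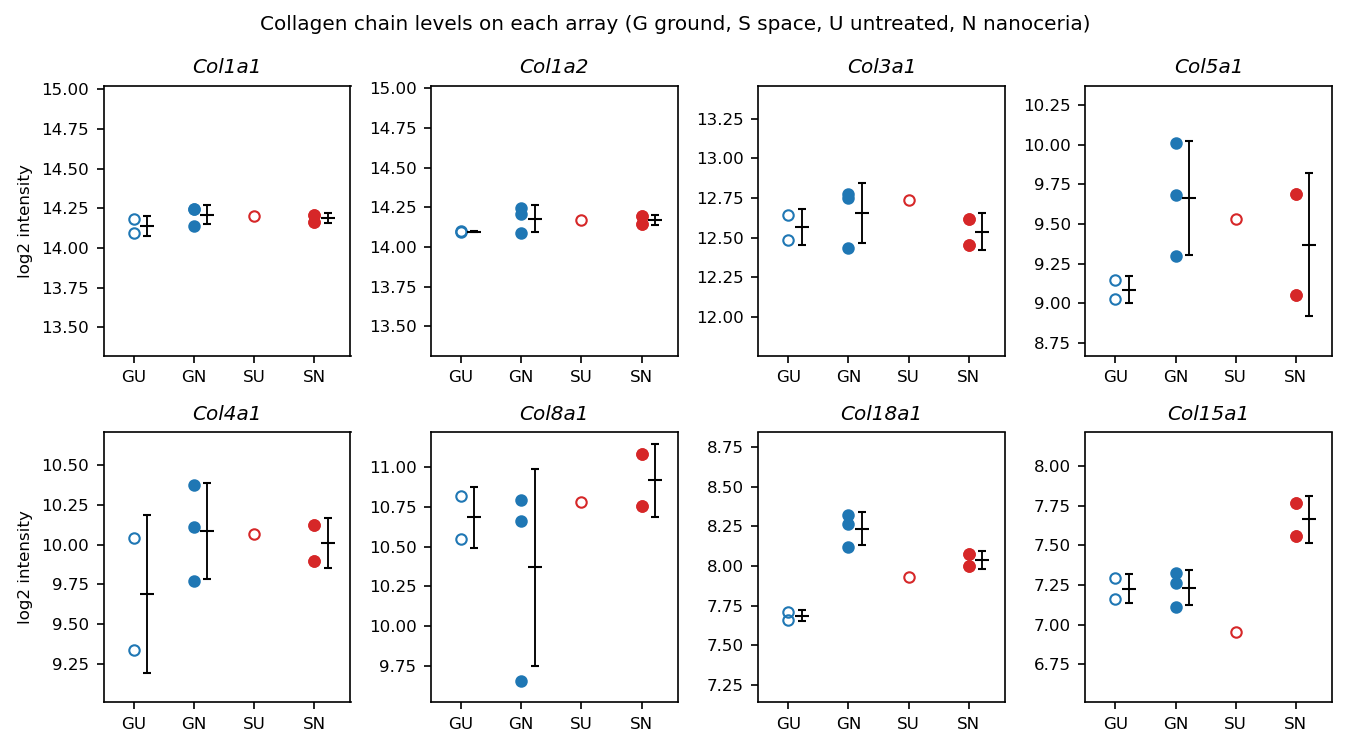
Log2 intensity (y axis) on each array by group (x axis: GU ground untreated, GN ground nanoceria, SU space untreated, SN space nanoceria; blue ground, red space, filled nanoceria) for 8 collagen chain genes, with black bars for mean ± SD where a group has more than 1 array. Every panel has the same height in log2 units. The 2 type I chains show almost no spread, Col18a1 separates the ground groups, and Col15a1 is highest in treated space cells.

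The arrays differed in where the 20 genes lay, but the same counts were not taken over all probe sets, so nothing particular to collagen is read from them. Ground untreated replicate 3 held the lowest value of 8 of the 20 genes and the highest of 0, with a median deviation of -0.15 from each gene's own mean. Ground nanoceria replicate 3 held the highest value of 8 and ground nanoceria replicate 2 of 5, with median deviations of 0.096 and 0.100. On the 3 space arrays the median deviation was 0.011, -0.036 and 0.023. Ground untreated replicate 1 lay at -0.049 and ground nanoceria replicate 1 at 0.019. The space arrays lay above both untreated ground arrays and below ground nanoceria replicates 2 and 3. The spread of these medians between replicate arrays was 0.051, and several gaps in this order were not much larger. The order is therefore not settled, least of all between space nanoceria replicate 1 and ground untreated replicate 1.

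**Figure D3:**
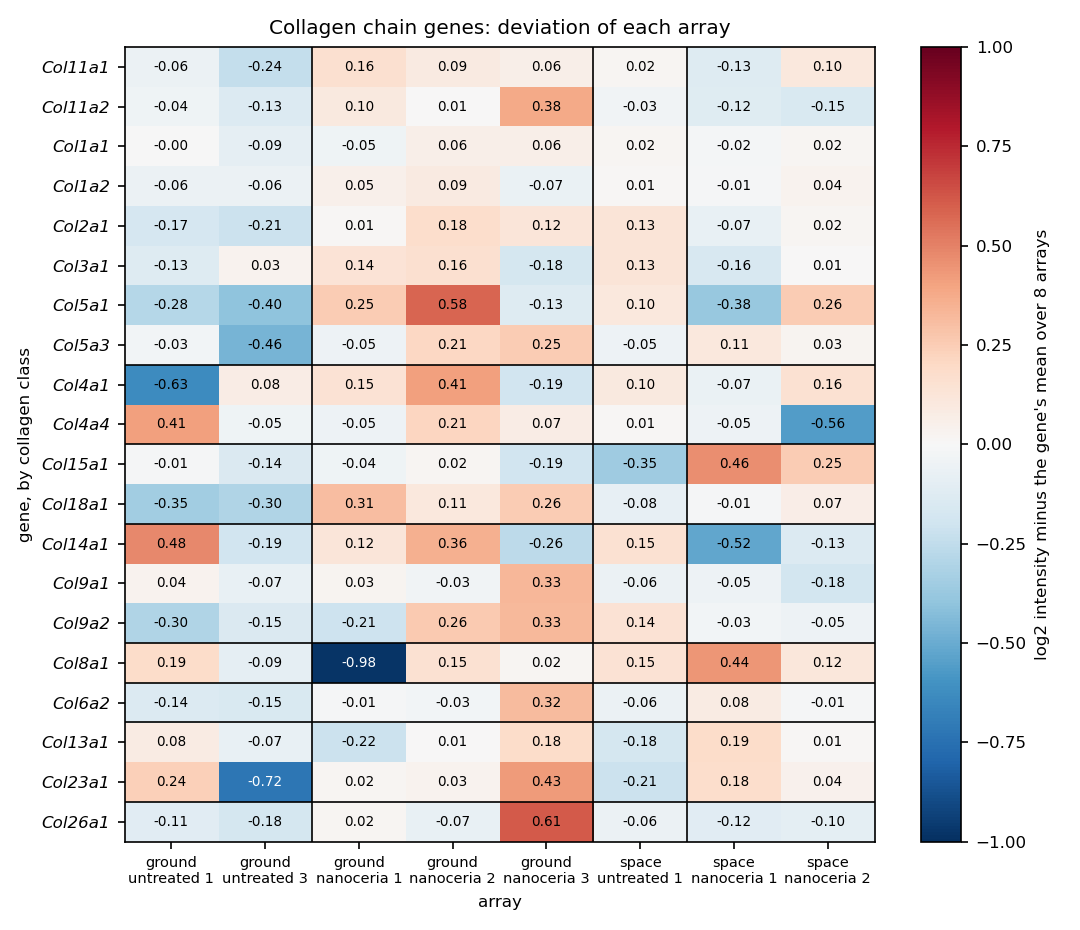
Deviation of each array (columns) from the gene's mean over all 8 arrays, in log2 units, for the 20 collagen chain genes (rows, grouped by class, classes parted by lines). Blue is below and red above the gene's own mean. The lowest cell is Col8a1 on ground nanoceria replicate 1, at -0.98. Ground untreated replicate 3 is below the mean for 18 of the 20 genes, a count not taken over all probe sets.

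Promoter sequences from RefSeq on the GRCr8 build, which is not the build named for the array, were at hand for 15 of the 20 genes, and covered 250 bases before to 50 after the annotated start. Each is shown for 1 reason: Col1a2 for the steadiest pair, Col4a1 for the start region it shares with Col4a2, and Col18a1 and Col15a1 for the chains with the smallest p. Capitals mark 3 promoter motifs on either strand. The first is the core of the CCAAT box, which reads ATTGG when reversed. The second is the TATA box, searched as TATAAA and reading TTTATA when reversed. The last is the core of the GC box, searched as GGGCGG and reading CCGCCC when reversed. They run 5′ to 3′ on the plus strand.
Col1a2, chr4:33518307-33518606: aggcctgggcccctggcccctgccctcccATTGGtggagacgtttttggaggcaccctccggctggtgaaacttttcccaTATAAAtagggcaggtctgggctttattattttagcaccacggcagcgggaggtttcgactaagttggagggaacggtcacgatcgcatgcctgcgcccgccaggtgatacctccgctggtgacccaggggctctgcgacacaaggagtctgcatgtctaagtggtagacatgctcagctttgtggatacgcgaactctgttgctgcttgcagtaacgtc
Col4a1, chr16:84885347-84885646: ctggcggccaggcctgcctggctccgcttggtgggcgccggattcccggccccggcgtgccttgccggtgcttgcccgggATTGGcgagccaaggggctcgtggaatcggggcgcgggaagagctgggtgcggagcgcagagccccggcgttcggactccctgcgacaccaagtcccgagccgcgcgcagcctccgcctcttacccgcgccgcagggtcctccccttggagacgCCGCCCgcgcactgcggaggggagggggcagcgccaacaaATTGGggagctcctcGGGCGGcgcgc
Col18a1, chr20:11473395-11473694: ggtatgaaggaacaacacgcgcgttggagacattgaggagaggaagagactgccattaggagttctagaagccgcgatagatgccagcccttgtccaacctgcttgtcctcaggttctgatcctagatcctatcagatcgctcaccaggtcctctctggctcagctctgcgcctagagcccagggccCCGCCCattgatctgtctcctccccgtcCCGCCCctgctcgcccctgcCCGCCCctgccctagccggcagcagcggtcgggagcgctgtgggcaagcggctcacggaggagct
Col15a1, chr5:66297296-66297595: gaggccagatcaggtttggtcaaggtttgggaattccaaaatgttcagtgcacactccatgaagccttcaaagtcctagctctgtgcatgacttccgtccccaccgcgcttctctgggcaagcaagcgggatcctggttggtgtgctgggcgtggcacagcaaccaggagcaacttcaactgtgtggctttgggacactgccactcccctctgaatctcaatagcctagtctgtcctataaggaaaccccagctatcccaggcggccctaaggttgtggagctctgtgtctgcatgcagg

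Of these, the Col1a2 window held a reversed CCAAT 221 bases and a TATAAA 170 bases before the annotated start. The Col18a1 window held 3 GGGCGG cores, all reversed, at 63, 35 and 15 bases before the start. The Col4a1 window held a reversed CCAAT 170 bases and a reversed GGGCGG 16 bases before the start. After it lay another reversed CCAAT at 24 bases and a forward GGGCGG at 39 bases. In the Col15a1 window none of these letters were found. The annotated starts of Col4a1 and Col4a2 lay 77 bases apart on opposite strands, so 176 of the 300 printed bases also lie in the Col4a2 window. Over the members with a promoter, CCAAT was present in 4 of 15, TATAAA in 2 and GGGCGG in 8. Over all 33469 promoters the shares were 37.5%, 14.2% and 33.1%. These matches describe letters in a window and were not tied to the differences below.

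Nanoceria was compared with no treatment on ground to find the treatment's effect at normal gravity. Collagen chains read higher with nanoceria in 16 of 20 genes, with a median difference of 0.24, against 55.5% of all probe sets higher and a median of 0.038. All 8 fibrillar genes read higher, from 0.070 for Col1a1 to 0.58 ± 0.27 (SE) for Col5a1. Col18a1 differed by 0.55 ± 0.15, from 7.69 ± 0.04 (SD, n = 2) to 8.24 ± 0.10 (SD, n = 3), a 1.46-fold difference. Col2a1 differed by 0.30 ± 0.15, Col9a2 by 0.35 ± 0.20 and Col4a1 by 0.40 ± 0.27. Col8a1 was among the 4 genes that read lower, at -0.32 ± 0.34, and without ground nanoceria replicate 1 its difference was 0.040. No member passed limma with Benjamini-Hochberg adjustment over 23188 probe sets (0 of 20; 0 of all), and the smallest adjusted p of a member was 0.275, for Col18a1. Its 95% interval was 0.20 to 0.90. At an unadjusted limma p below 0.05 there was 1 member higher, where 4.42% of all probe sets were, and 0 lower, where 6.57% were (11% in either direction). The treated and untreated arrays did not overlap, with treated higher, for 7 of the 20 genes (Col2a1, Col5a1, Col6a2, Col11a1, Col11a2, Col18a1 and Col26a1), against 14.3% of all probe sets. In the opposite direction this held for 0 members, against 12% of all probe sets (26.3% in either direction).

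The count on ground moved with the scaling and with single arrays. Under cyclic loess 13 of 20 genes read higher, with a median of 0.24, and 51% of all probe sets did. With equal array medians 17 of 20 read higher, with a median of 0.28, and 61.1% of all probe sets did. Unadjusted limma p was then below 0.05 for 3 members and for 2698 of 23188 probe sets. The median was 0.14 without ground nanoceria replicate 3 (17 of 20 higher) and 0.16 without ground untreated replicate 3 (14 of 20 higher). It was 0.26 without ground untreated replicate 1 (19 of 20 higher). Col18a1 stayed between 0.51 and 0.61 whichever array was left out. Other genes moved with the same contrast. Of 11 muscle markers, none of them listed at 0, 10 read higher in it, where 55.5% of all probe sets did. The log2 of their summed intensities is carried by the brightest genes, mainly Tnnc2 and Acta1 in treated ground cells. This sum was 10.54 and 11.86 in untreated and 12.33 to 12.63 in treated ground cells. In space it was 12.02 in untreated and 11.86 and 12.13 in treated cells. Its part in the collagen differences was not tested, and neither was that of the cell cycle genes that lay low on ground untreated replicate 3.

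**Figure D4:**
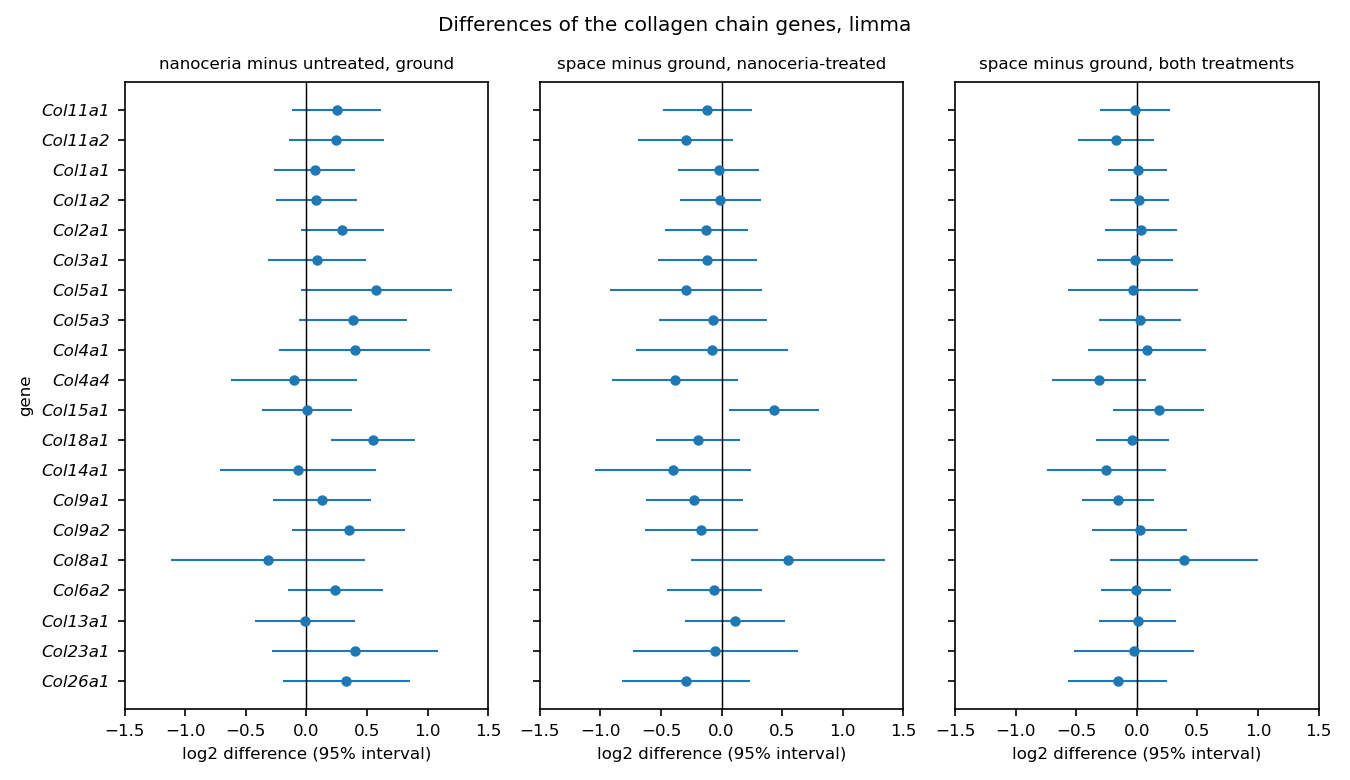
Log2 difference (x axis) with its 95% interval from limma for each of the 20 collagen chain genes (y axis) in 3 comparisons. On ground, 16 of 20 points lie above 0 for nanoceria against untreated. Among treated cells 17 of 20 lie below 0 for space against ground, and over both treatments they scatter around 0.

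In space, nanoceria was compared with no treatment on 2 arrays against 1, so the fit took the spread of the single untreated array from the remaining groups. Collagen chains read lower with nanoceria in 12 of 20 genes and higher in 8, with a median of -0.043, against 51.9% of probe sets higher and a median of 0.0082. Col15a1 had the smallest p of a member, with 0.71 ± 0.21 and a 95% interval of 0.21 to 1.21. Its ground difference was 0.0065 ± 0.16, from 7.23 ± 0.09 (SD, n = 2) to 7.23 ± 0.11 (SD, n = 3). Col18a1 differed by 0.11 ± 0.20 and Col5a1 by -0.16 ± 0.36. The type I chains differed by -0.015 ± 0.19 (Col1a1) and 0.0024 ± 0.19 (Col1a2). With limma 0 members and 0 probe sets passed, and every member had adjusted p = 0.9999. The count of members at an unadjusted p below 0.05 was 1 higher, where 0.707% of all probe sets were, and 0 lower, where 0.763% were (1.47% in either direction). Without space nanoceria replicate 1, Col15a1 differed by 0.61, that count was 0 and the collagen median was 0.016.

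The difference between the 2 nanoceria effects was tested as an interaction, space minus ground. It was negative for 17 of 20 genes, with a median of -0.28, against -0.010 for all probe sets, of which 48.7% were positive. Under cyclic loess it was negative for 15 genes with a median of -0.21. Col5a1 lay at -0.74 ± 0.45, Col9a2 at -0.53 ± 0.33, Col2a1 at -0.45 ± 0.24 and Col18a1 at -0.44 ± 0.25. Col15a1 went the other way, at 0.71 ± 0.27, with a 95% interval of 0.08 to 1.33. No member passed limma (0 of 20; 0 of all probe sets, each member with adjusted p = 0.9999). Unadjusted p-values below 0.05 were found for 1 member higher, where 1.44% of all probe sets were, and 0 lower, where 0.906% were (2.35% in either direction). That count was 0 without space nanoceria replicate 1 or ground untreated replicate 1, where Col15a1 lay at 0.60 and 0.64. The effects on ground and in space were therefore not shown to differ, and the median was -0.14 without ground untreated replicate 3 and -0.39 without ground untreated replicate 1.

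Spaceflight was compared with ground within each treatment. In treated cells 17 of 20 collagen genes read lower in space, with a median of -0.12, against 41.4% of probe sets higher and a median of -0.051. All 8 fibrillar genes read lower there, but by no more than 0.30, the value of Col11a2 (-0.30 ± 0.17), and by -0.0097 ± 0.14 for Col1a2. Col18a1 differed by -0.20 ± 0.15 and Col4a4 by -0.38 ± 0.22. Col15a1 was higher by 0.43 ± 0.16, from 7.23 ± 0.11 (SD, n = 3) to 7.66 ± 0.15 (SD, n = 2), with a 95% interval of 0.06 to 0.80. Col8a1 read 0.55 ± 0.34 higher, and 0.19 without ground nanoceria replicate 1. No member passed limma (0 of 20; 0 of all), and the smallest adjusted p was 0.543, for Col15a1. At an unadjusted p below 0.05 there was 1 member higher, where 5.02% of all probe sets were, and 0 lower, where 3.39% were (8.41% in either direction). Col15a1 lost that unadjusted call without space nanoceria replicate 1 (0.33) or ground nanoceria replicate 3 (0.37). Without space nanoceria replicate 1, Col4a4 had it instead, at -0.64. Space arrays lay wholly below ground arrays for 5 genes (Col4a4, Col9a1, Col11a2, Col18a1 and Col26a1), against 17.6% of probe sets, and wholly above for Col15a1 alone, against 13.6% (31.2% in either direction). For Col4a4 this was almost a tie, with 4.7709 the highest in space and 4.7711 the lowest on ground, below the lower quartile of all values. For Col9a1 these values were 7.47 and 7.49. The treated ground arrays enter both this comparison and that of nanoceria on ground, so the 2 are not independent.

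In untreated cells the single space array was set against both ground arrays. Here 16 of 20 genes read higher in space, with a median of 0.088, against 45.5% of probe sets and a median of -0.025. Without ground untreated replicate 3 the count was 12 of 20 and the median 0.038. The 8 fibrillar genes all read higher, with Col2a1 at 0.32 ± 0.20 and Col5a1 at 0.45 ± 0.36. Col9a2 differed by 0.36 ± 0.27 and Col4a1 by 0.38 ± 0.36, while Col15a1 lay at -0.27 ± 0.21. With limma 0 members and 0 probe sets passed (each member with adjusted p = 0.9999). Of the members 0 had an unadjusted p below 0.05, where 3.14% of all probe sets did (1.63% higher and 1.51% lower). This comparison shares its untreated ground arrays with that of nanoceria on ground.

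Over both treatments, the additive fit left almost no collagen difference between space and ground. Of the 20 genes 9 read higher and 11 lower, with a median of -0.010, against 41.3% of probe sets higher and a median of -0.044. The size of the difference, without its sign, had a median of 0.031 for the collagen genes and 0.15 for all probe sets. Within untreated cells that median was 0.17 for the collagen genes and 0.17 for all probe sets, and within treated cells 0.15 and 0.19. Most collagen genes read higher in space in untreated cells and lower in treated cells, and such differences partly cancel in the additive fit. Col4a4 and Col8a1 had the smallest p, at -0.31 ± 0.17 and 0.39 ± 0.27, and Col8a1 lay at 0.15 without ground nanoceria replicate 1. Type I chains differed by 0.0076 (95% interval -0.24 to 0.25, Col1a1) and 0.019 (-0.23 to 0.26, Col1a2), and Col3a1 by -0.013 (-0.33 to 0.30). The type I intervals do not exclude shifts of that size in either direction. No member passed limma (0 of 20; 0 of all), the smallest adjusted p being 0.595, and 0 members had an unadjusted p below 0.05, where 9.56% of all probe sets did (5.3% higher and 4.26% lower). Space and ground arrays overlapped for all 20 members; they did not for 5.11% of all probe sets (1.97% with space higher and 3.14% lower). Without ground untreated replicate 3, Col4a4 lay at -0.39 with an unadjusted p below 0.05. Under cyclic loess 13 genes read higher and under equal array medians 7, so the sign of the median depends on the scaling. The median was -0.12 without the single untreated space array, 0.034 without space nanoceria replicate 1 and 0.011 without space nanoceria replicate 2.

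Over both regimes, nanoceria against untreated gave 16 of 20 genes higher, with a median of 0.14, against 56% of probe sets and a median of 0.033. Col18a1 again had the smallest p, at 0.39 ± 0.13 with a 95% interval of 0.09 to 0.69. Col5a3 lay at 0.29 ± 0.15, Col23a1 at 0.37 ± 0.22 and Col6a2 at 0.19 ± 0.13. Treated arrays lay wholly above untreated arrays for 2 genes, Col18a1 (8.00 to 8.32 against 7.66 to 7.93) and Col6a2 (6.95 to 7.30 against 6.82 to 6.92), against 2.47% of all probe sets. Wholly below were 0, against 2.28% (4.74% in either direction). No member passed limma (0 of 20; 0 of all), and the adjusted p of Col18a1 was 0.447. Limma's unadjusted p was below 0.05 for 1 member higher, where 3.77% of all probe sets were, and 0 lower, where 5.86% were (9.63% in either direction). Col18a1 lost that unadjusted call without ground untreated replicate 1 (0.33) or 3 (0.35), and without replicate 1 Col23a1 had it, at 0.62. The median was 0.079 without ground untreated replicate 3, 0.079 without ground nanoceria replicate 3, and 0.24 without the untreated space array, which leaves the ground effect alone.

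Genes that act on collagen chains were counted from fixed lists. Of 26 measured genes of collagen biosynthesis, 9 read higher and 17 lower in space over both treatments, with a median of -0.10. Of all probe sets 41.3% read higher, with a median of -0.044. The 3 with the smallest p all encode hydroxylases, whose products stabilise the triple helix or prepare its cross-links. P4ha1, a prolyl 4-hydroxylase subunit, differed by 1.05 ± 0.32, P4ha2 by 1.29 ± 0.45 and the lysyl hydroxylase gene Plod2 by 1.79 ± 0.59. Plod2 read 9.02 and 10.19 in untreated and 8.89, 11.29 and 8.74 in treated ground cells. It read 11.88 in untreated and 10.88 and 11.45 in treated space cells, so only ground nanoceria replicate 2 reached the space range. None passed limma, and the smallest adjusted p was 0.399, for P4ha1. At an unadjusted p below 0.05, 4 of the 26 were higher, where 5.3% of all probe sets were, and 1 was lower, where 4.26% were. With nanoceria over both regimes 19 of 26 read higher, with a median of 0.15, against 56% of all probe sets. The cross-linking enzyme gene Loxl1 lay at 0.37 ± 0.15. Tll2, a propeptide-cleaving protease, lay at -0.31 ± 0.16 and Creb3l1, a transcription factor that drives collagen secretion, at 0.26 ± 0.14. On ground alone 21 of 26 read higher with nanoceria, with a median of 0.18, against 55.5% of all probe sets.

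The receptor and regulator lists are set against the same shares, 41.3% of all probe sets higher in space and 56% with nanoceria. Of 18 measured receptors and fibril partners, 7 read higher in space, with a median of -0.053. The collagen receptor kinase gene Ddr2 lay at 0.48 ± 0.19, decorin, Dcn, which binds fibrils, at 0.49 ± 0.20 and the collagen uptake receptor gene Mrc2 at -0.47 ± 0.21. With nanoceria 9 read higher and 9 lower, with Ddr2 at -0.42 ± 0.19, Dcn at -0.43 ± 0.20 and the matricellular gene Postn at -0.44 ± 0.23. Of 16 regulators, 11 read higher in space, with a median of 0.18. Tgfb1 lay at -0.47 ± 0.18, Tgfb2 at 0.63 ± 0.27 and the signal transducer gene Smad2 at 0.19 ± 0.12. With nanoceria 9 of 16 read higher, with Ccn2 at 0.42 ± 0.25, Snai1 at 0.41 ± 0.26 and Smad4 at -0.24 ± 0.16. Neither list had a gene that passed limma in either comparison (0 of 18 and 0 of 16). Unadjusted, 2 of 18 and 2 of 16 had a p below 0.05 for space and 0 of both for nanoceria, where 9.56% and 9.63% of all probe sets were.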

How the data were processed

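Each of 8 samples gave 30 ng of total RNA for 1 Clariom S Pico rat array; a ground untreated replicate 2 is not analysed here. The authors deposited probe set intensities, for which the submitters' processing notes name RMA without version or settings. These intensities were linear (8.63 to 19506, 0 at or below 0), where log2 values had been assumed, so log2 was taken without a pseudocount. All 23188 probe sets were tested; 15049 carried a symbol, all kept after a match by gene identifier to RefSeq. R 4.3.3 with limma 3.58.1 gave all differences (lmFit and eBayes, Benjamini-Hochberg at 0.05), additively for regime and treatment or with 1 mean per group. The fits were also run on simulated data, and no rate of detection is drawn from that run here. Correlations used SciPy 1.17.1. The number of arrays limits the precision. Alternatives were cyclic loess, equal array medians, brighter probe sets alone, a trended robust variance, array weights, a replicate block, each array left out, and group means in place of the additive model.

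The members and lists were chosen with earlier results of these data known. Values are given for 6 measured chains of 10 fixed ones (types I, III, IV, V and VI) and for members with an unadjusted p below 0.05, or the 2 smallest p; for each related list, the 3 smallest p. Col23a1, Col5a3, Col11a1, Col11a2, Col14a1 and Col26a1 were named after their values were seen.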

Additional observations from a re-analysis of the deposited data

Results flagged for a closer look

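For 5 genes the arrays of one contrast all moved one way and those of the matching contrast all moved the other way. That was 5 of 20 members, against 8.22% of all probe sets, and nothing particular to collagen is read from it. Nanoceria went up on ground and down in space for Col2a1 (interaction -0.45 ± 0.24), Col11a2 (-0.35 ± 0.28) and Col26a1 (-0.38 ± 0.38). Space went down in treated and up in untreated cells for Col18a1 (-0.44 ± 0.25), Col11a2 and Col26a1. Space went up in treated and down in untreated cells for Col15a1 (0.71 ± 0.27). The interaction test passed for none of the 5 (limma, adjusted p = 0.9999 each), and the untreated space side is 1 array. The study's groups held 1 to 3 arrays, so single arrays were not tested as outliers.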

How the results depend on the processing

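With limma and Benjamini-Hochberg adjustment, 0 collagen chain genes passed in any of the 7 comparisons under any alternative run. The 124 refits of single values covered only the members with the smallest p in each comparison. Within these refits no gene changed sign or side of the threshold. Outside them signs did change. For nanoceria on ground, Col8a1 turned from negative to positive without ground nanoceria replicate 1. In the same comparison Col15a1 went from 0.0065 to -0.0026 with the replicate block. Counts over all probe sets moved: for space against ground 4 passed with array weights and 0 to 1 with 1 array left out, for nanoceria on ground 0 to 167 (167 without ground untreated replicate 1, where the untreated side is the array that stands apart) and for space in untreated cells 0 to 6 (6 also without ground untreated replicate 1). The collagen median moved by more than its spread between replicate arrays (0.051) for the interaction under cyclic loess (-0.21), and with array weights for nanoceria over both regimes (0.052) and on ground (0.18). With 1 array left out it ran from -0.12 to 0.034 for space against ground, from 0.079 to 0.24 for nanoceria over both regimes, from 0.14 to 0.26 for nanoceria on ground, from -0.047 to 0.016 for nanoceria in space, from 0.038 to 0.11 for space in untreated cells, from -0.15 to -0.094 for space in treated cells and from -0.39 to -0.14 for the interaction. A group left with 1 array took its spread from the remaining groups, and without the untreated space array 3 comparisons (nanoceria in space, space in untreated cells, the interaction) had no value. The causes were not tested. The r of Col1a1 and Col1a2 was -0.050 without ground untreated replicate 3 and 0.58 under cyclic loess, both with exact permutation p above the threshold (0.912 and 0.188). With the brighter probe sets alone, 18 of 20 members were left.

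With the replicate block 0 members passed limma after adjustment in any comparison, but unadjusted p-values crossed 0.05. Col15a1 no longer lay below it for the interaction (0.75) and for space in treated cells (0.38), and Col14a1 did for space against ground (-0.48) and in treated cells (-0.61). The Col14a1 probe set lay below the lower quartile of all values (5.18) on every array. With it the collagen median was 0.24 for nanoceria on ground, -0.022 for space against ground and 0.12 for nanoceria over both regimes. Deviations from the group means of same-numbered arrays had r from -0.35 to -0.013 over 5 pairs. In a group of 2 arrays these deviations mirror each other, so the r values are not independent. They cannot decide whether the numbers mark pairs, and the main fits did not take them as pairs. Each member had a single probe set, so another choice of probe set could not be tried.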
